A study of Mus musculus with 9 samples.

Results

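The immunoglobulin heavy and light chain genes were followed through 9 bone marrow endothelial RNA-seq libraries. Members were the rows of the deposited gene table named as heavy, kappa or lambda variable, diversity, joining or constant genes, together with the J chain gene, which the table calls by its older symbol *Igj*. The rule found 157 genes of 17232. They comprised 78 heavy chain genes (68 variable, 2 diversity, 4 joining and 4 constant), 74 kappa genes (69 variable, 4 joining and *Igkc*), 4 lambda genes (3 variable and *Iglc2*) and *Igj*. The rule used gene names only and no measured value. The heavy chain genes lie on chromosome 12, the kappa genes on chromosome 6, the lambda genes on chromosome 16 and *Igj* on chromosome 5.

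Every library came from *Nestin*-GFP transgenic mice, in which *Nestin* regulatory sequences drive green fluorescent protein. The 3 sorted populations were *Nestin*-GFPbright arterial endothelial cells (bright AECs), *Nestin*-GFPdim AECs (dim AECs) and sinusoidal endothelial cells (SECs). All were gated as CD45- Ter119- CD31+, AECs as PDPN- with high Sca-1, and SECs as PDPN+ with low Sca-1, so that cells with CD45, the pan-leukocyte surface protein, were to be left out. The labels name no treatment, and the mice of the study were young adults, with no age given for single libraries. Per the paper's methods, anti-PDPN antibody was injected intravenously shortly before endothelial cells were taken for flow cytometry. Each population had 3 libraries, numbered 1, 3 and 4, which are called bright 1, dim 3, SEC 4 and so on. Nothing in the labels says whether the 3 libraries of a population came from separate mice or pools, so p-values measure the spread between these libraries, which may be technical. In bulk RNA, fewer cells of a type and less RNA per cell cannot be told apart.

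An antibody is built from paired heavy and light chains, and each light chain is either kappa or lambda. In every B cell, a heavy chain gene is assembled by joining a variable, a diversity and a joining segment, and a light chain gene by joining a variable and a joining segment, so the descendants of a B cell share their variable genes. The heavy constant gene sets the class: *Ighm* encodes the IgM heavy chain, *Igha* that of IgA, and *Ighg2b* and *Ighg2c* those of IgG subclasses. Plasma cells, the antibody-secreting end of the B lineage, live in bone marrow in large numbers and devote much of their messenger RNA to these chains. The J chain links IgM and IgA into polymers.

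Variable segments carry the identity of an antibody, and a few of them held most of a library's variable RPKM, except in bright 4. The germline 3′ ends of some segments that led or came second in their chain in bright 1, dim 1, SEC 1 or SEC 4 are given here. They are in the sense direction, with the codon of the conserved cysteine near the end of the segment in capitals. The sequences are those of the GENCODE M21 transcripts, and the positions are those of the gene table, on GRCm38. *Igkv3-4* (chr6:70671789-70672377, plus strand) and *Ighv1-75* (chr12:115833950-115834396, minus strand) led in bright 1 or dim 1 and were high in both. *Ighv5-17* (chr12:113859149-113859616, minus) and *Igkv9-124* (chr6:67942074-67942360, minus) were high in bright 1, and *Ighv1-36* (chr12:114879888-114880321, minus) and *Igkv12-46* (chr6:69764523-69764992, minus) in dim 1. *Ighv5-15* (chr12:113826646-113827121, minus) and *Igkv8-30* (chr6:70117061-70117617, minus) were high in SEC 1, and *Ighv1-53* (chr12:115158403-115158835, minus) and *Igkv1-135* (chr6:67609745-67610508, plus) in SEC 4. *Iglv1* (chr16:19085017-19085460, minus) was the highest lambda variable gene.
Ighv1-75: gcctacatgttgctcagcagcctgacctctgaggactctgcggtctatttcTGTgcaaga
Ighv5-17: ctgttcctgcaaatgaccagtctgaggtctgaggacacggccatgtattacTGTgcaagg
Ighv1-36: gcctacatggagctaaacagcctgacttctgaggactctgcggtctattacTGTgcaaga
Ighv5-15: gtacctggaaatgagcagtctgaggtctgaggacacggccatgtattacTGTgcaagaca
Ighv1-53: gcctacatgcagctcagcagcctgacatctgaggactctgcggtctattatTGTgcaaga
Igkv3-4: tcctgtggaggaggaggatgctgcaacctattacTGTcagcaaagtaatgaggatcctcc
Igkv9-124: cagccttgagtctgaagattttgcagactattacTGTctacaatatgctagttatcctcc
Igkv12-46: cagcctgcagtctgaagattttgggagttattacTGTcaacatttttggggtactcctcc
Igkv8-30: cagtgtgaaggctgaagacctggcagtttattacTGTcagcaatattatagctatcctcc
Igkv1-135: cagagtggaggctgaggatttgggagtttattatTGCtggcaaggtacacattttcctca
Iglv1: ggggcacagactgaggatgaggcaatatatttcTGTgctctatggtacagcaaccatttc

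The joining segments supply the last residues of the variable domain. The 4 heavy joining segments of the table are shown for comparison, with the codon of the tryptophan that opens their conserved motif in capitals.
Ighj1: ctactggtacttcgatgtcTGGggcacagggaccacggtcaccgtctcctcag
Ighj2: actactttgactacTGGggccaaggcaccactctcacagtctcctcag
Ighj3: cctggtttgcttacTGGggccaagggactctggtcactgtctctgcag
Ighj4: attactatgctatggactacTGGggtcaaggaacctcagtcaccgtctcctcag

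The immunoglobulin genes took a larger share of the reads in the libraries numbered 1, whichever population they came from. All 157 genes together held 1.81% of the reads in bright 1, 0.0338% in bright 3 and 0.0526% in bright 4. They held 1.15%, 0.0233% and 0.00302% in dim 1, dim 3 and dim 4, and 0.378%, 0.00870% and 0.314% in SEC 1, SEC 3 and SEC 4. The reads behind these shares ranged from 982725 in bright 1 to 1229 in dim 4, out of 13896190 to 73475550 reads a library (median 36720449). The widest 95% interval (Wilson) of a share spanned 0.0112 percentage points, and such intervals cover counting error only. They take each read as an independent draw, although the RNA was amplified, and so may be too narrow. The libraries differed far beyond this counting error of reads, while the populations overlapped. The share averaged 0.631% ± 1.02 in bright AECs, 0.393% ± 0.657 in dim AECs and 0.234% ± 0.197 in SECs (mean ± SD of 3 libraries a population), and the SD exceeded the mean in both AEC populations. By the medians, 0.0526%, 0.0233% and 0.314%, SECs stood highest and dim AECs lowest.

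**Figure D1:**
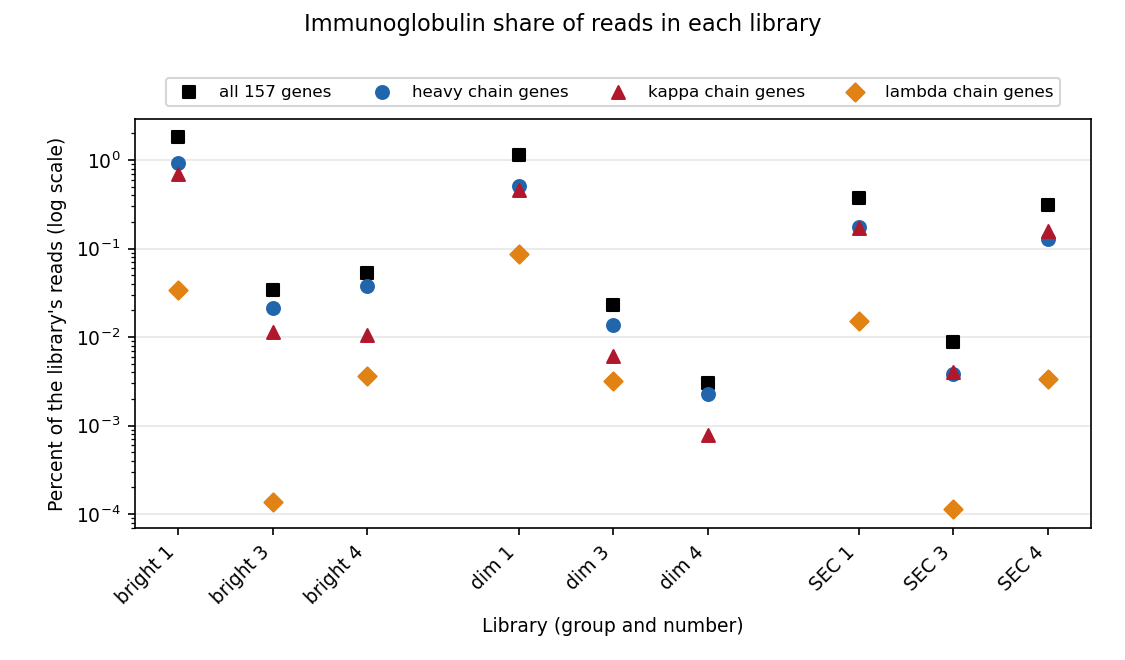
Percent of each library's reads on immunoglobulin genes, on a log scale, for all 157 genes and for the heavy, kappa and lambda genes, with the 9 libraries on the x axis in 3 groups. Bright 1 (1.81%) and dim 1 (1.15%) stand highest and dim 4 (0.00302%) lowest, and dim 4, which had no lambda read, has no lambda point.

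Heavy and kappa genes made up most of it, and lambda genes held up to 13.7% of the immunoglobulin reads (dim 3). Heavy chain genes held 0.938%, 0.0215% and 0.0382% of the reads in the bright libraries, 0.512%, 0.0137% and 0.00225% in the dim libraries, and 0.177%, 0.00379% and 0.130% in the SEC libraries, in the order 1, 3 and 4. Kappa genes held 0.692%, 0.0114% and 0.0105% in bright AECs, 0.457%, 0.00608% and 0.000774% in dim AECs, and 0.170%, 0.00400% and 0.158% in SECs. Heavy chain genes took the larger part of immunoglobulin reads in each of the 6 AEC libraries and in SEC 1, and kappa genes did so in SEC 3 and SEC 4. Lambda genes were highest in dim 1, at 0.0862% of its reads. Dim 4 had no lambda read at all.

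By class, constant genes held most immunoglobulin reads everywhere, between 60.3% in SEC 3 and 86.2% in dim 4. Variable genes held 27.7%, 23.4% and 22.0% in the bright libraries, 29.1%, 23.0% and 11.4% in the dim libraries, and 33.8%, 30.5% and 30.9% in the SEC libraries. Every SEC library lay above every AEC library in this share. *Igj* held between none (dim 4) and 9.09% (SEC 3) of the immunoglobulin reads.

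*Igkc*, the constant gene of the kappa chain, was the highest member in every library but bright 4, where *Ighm* stood higher. Its level was 13965, 206 and 197 RPKM (reads scaled to transcript length and library size) in the bright libraries 1, 3 and 4, 8100, 116 and 15.4 RPKM in the dim libraries, and 2516, 71.3 and 2604 RPKM in the SEC libraries. Bright 1, dim 1, SEC 1 and SEC 4 were high, and the populations overlapped. The mean ± SD over 3 libraries was 4790 ± 7946 RPKM in bright AECs, 2744 ± 4639 RPKM in dim AECs and 1730 ± 1438 RPKM in SECs.

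*Ighm* stood at 1976, 121 and 213 RPKM in bright AECs, 836, 70.4 and 13.7 RPKM in dim AECs, and 559, 6.42 and 174 RPKM in SECs. *Igha* spread much further, with 4428, 2.24 and 8.06 RPKM in bright AECs, 2981, 8.53 and 0.0298 RPKM in dim AECs, and 456, 11.5 and 683 RPKM in SECs. The dim 4 value of *Igha* rested on 1 read. *Igj* followed *Igha*, at 935, 4.31 and 1.43 RPKM in bright AECs, at 525 and 1.89 RPKM in dim 1 and dim 3 with no read in dim 4, and at 80.5, 4.58 and 119 RPKM in SECs. High *Igha* and high *Igj* were seen in the same 4 libraries, bright 1, dim 1, SEC 1 and SEC 4.

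The lambda constant gene *Iglc2* had 269, 1.68 and 20.6 RPKM in bright AECs, 229 and 28.4 RPKM in dim 1 and dim 3 with no read in dim 4, and 99.6, 1.76 and 28.9 RPKM in SECs. *Ighg2c* was at 1258 RPKM in bright 1, with no read in bright 3 and 0.311 RPKM in bright 4. It had 0.825 RPKM in dim 1 and no read in dim 3 or dim 4, and 0.216 and 0.713 RPKM in SEC 1 and SEC 3 with no read in SEC 4. A level above 1 RPKM of this IgG gene was thus seen in bright 1 alone. *Ighg2b* had 25.4 and 0.0525 RPKM in bright 1 and bright 4 with no read in bright 3, 3.66 and 0.195 RPKM in dim 1 and dim 3 with no read in dim 4, and 12.2, 8.63 and 0.505 RPKM in SECs.

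**Figure D2:**
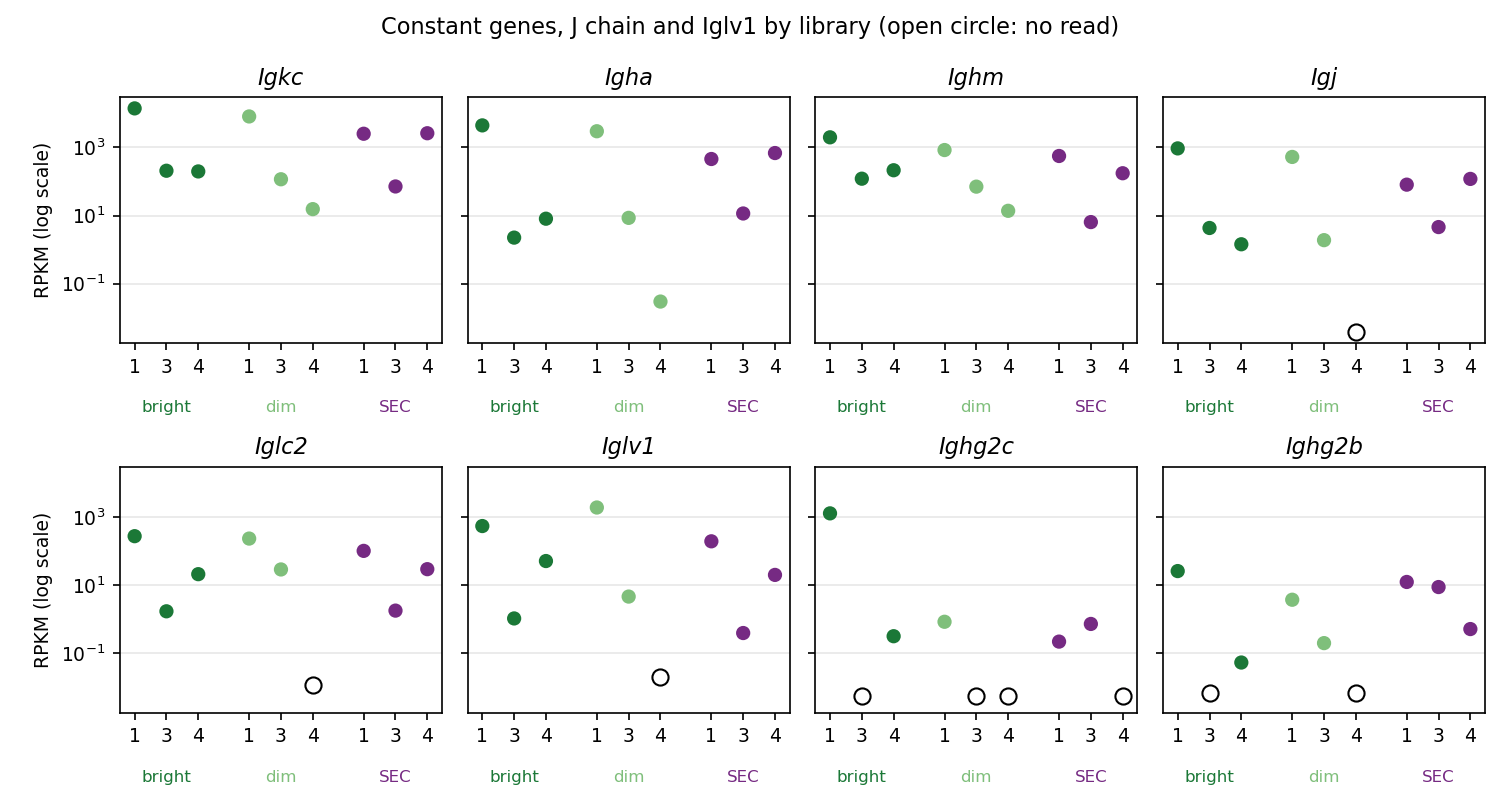
Level of each heavy, kappa and lambda constant gene, of the J chain gene and of *Iglv1* in RPKM on a log scale, with 1 point a library and open circles for libraries with no read. *Igkc* reaches 13965 RPKM in bright 1 and 15.4 RPKM in dim 4, and the spread inside each population is wider than the distance between populations.

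The makeup of the heavy constant reads differed between libraries as well as the amount. Of the summed RPKM of the 4 heavy constant genes, *Igha* held 57.6%, 1.83% and 3.63% in bright 1, 3 and 4, 78.0%, 10.8% and 0.216% in dim 1, 3 and 4, and 44.4%, 42.1% and 79.6% in SEC 1, 3 and 4. *Ighm* held 25.7%, 98.2% and 96.2% in bright AECs, 21.9%, 89.0% and 99.7% in dim AECs, and 54.4%, 23.6% and 20.3% in SECs. The AEC libraries numbered 3 and 4 were thus almost wholly *Ighm*, which naive and early B cells also express, while the libraries numbered 1 and all SEC libraries held 42.1% or more of *Igha*. SEC 3, with the second lowest share of immunoglobulin reads, was the library with the largest part of *Ighg2b*, 31.7%, against at most 1.18% elsewhere.

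Light chain use favoured kappa. *Iglc2* was the only lambda constant gene in the table, so any lambda chains with another constant gene are missing from these constant gene shares. Kappa made up 98.1%, 99.2% and 90.5% of the summed RPKM of *Igkc* and *Iglc2* in the bright libraries, 97.3%, 80.4% and 99.9% in the dim libraries, and 96.2%, 97.6% and 98.9% in the SEC libraries. Dim 3 and bright 4 were the lowest, and their recovered reads gave 68.6% and 83.6%, since RPKM weights the shorter *Igkc* more. Lambda variable genes summed to 2024, 38.3 and 66.8 RPKM in dim 1, dim 3 and bright 4. Kappa variable genes there summed to 5303, 59.7 and 117 RPKM, and kappa was higher in every library. In dim 4, 0 of 207 light constant reads were lambda, which allows a share of up to 1.45% if reads are independent draws. The RNA was amplified, so these reads may stand for fewer molecules and the true limit may be higher. The level of *Igkc* was 1.82, 1.68 and 0.888 times that of the 4 heavy constant genes together in bright AECs, 2.12, 1.47 and 1.12 times in dim AECs, and 2.45, 2.62 and 3.04 times in SECs.

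**Figure D3:**
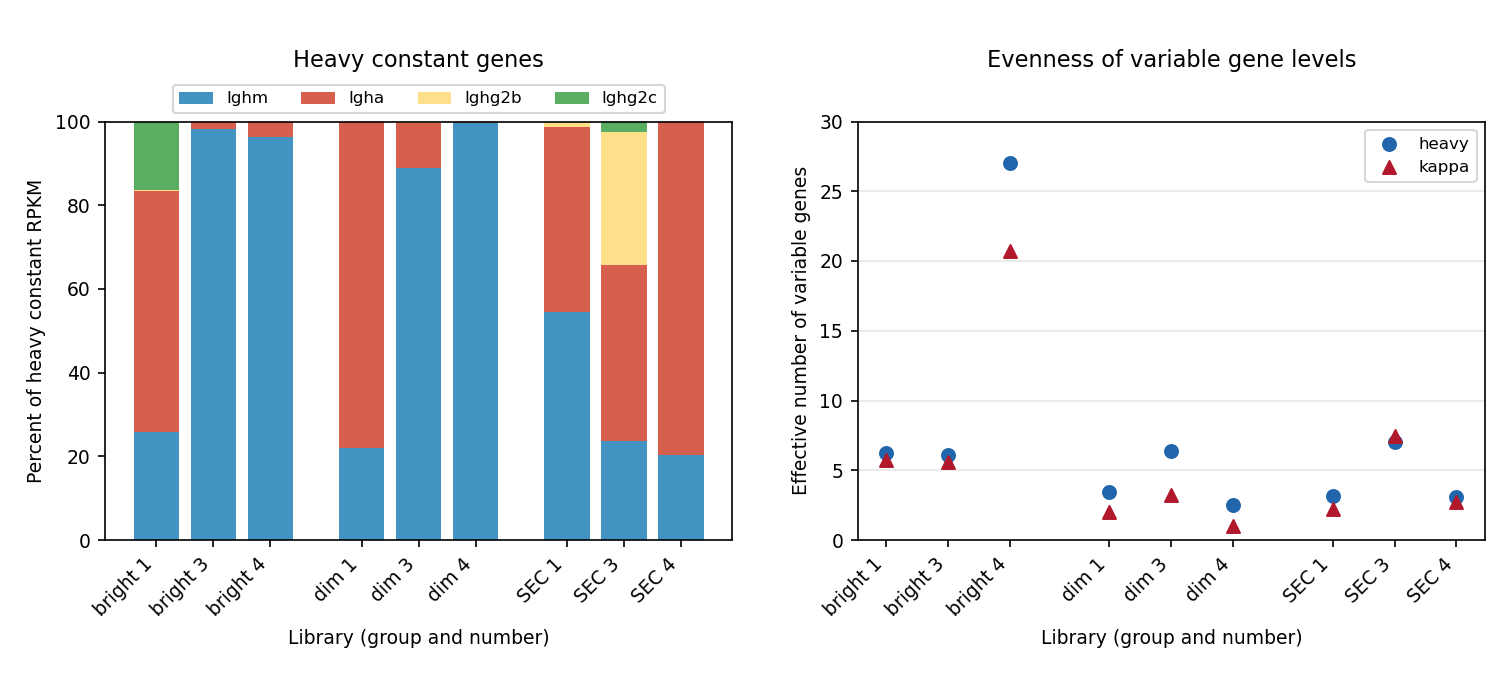
Left, percent of the heavy constant RPKM that each of the 4 heavy constant genes held in each library, as stacked bars. Right, effective number of heavy and kappa variable genes, the inverse of the summed squared shares, in which bright 4 stands highest with 27.0 heavy and 20.7 kappa genes and the other libraries reach at most 7.46.

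Variable genes with reads were many in bright 1, dim 1, SEC 1 and SEC 4, the libraries with high levels, and also in bright 4, and few in the other libraries. At least 1 read was found for 68, 16 and 48 of the 68 heavy variable genes in the bright libraries, 56, 11 and 4 in the dim libraries, and 68, 18 and 51 in the SEC libraries. For the 69 kappa variable genes the numbers were 68, 15 and 47 in bright AECs, 60, 10 and 1 in dim AECs, and 68, 22 and 40 in SECs. The gene table kept only genes read in at least 3 libraries above a low limit, so segments used in 1 or 2 libraries were not analysed here. No variable gene had reads in all 9 libraries, and *Igkv1-135* and *Iglv1* had them in 8.

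A few segments held most of the variable RPKM in the libraries other than bright 4, and heavy chain leaders differed from library to library. The leading heavy gene was *Ighv5-17* in bright 1 (25.8% of heavy variable RPKM), *Ighv1-80* in bright 3 (29.0%) and *Ighv5-4* in bright 4 (8.03%). It was *Ighv1-75* in dim 1 (49.5%), *Ighv10-3* in dim 3 (21.7%) and *Ighv1-26* in dim 4 (55.1%, from 18 reads). In SECs it was *Ighv5-15* in SEC 1 (56.2%), *Ighv7-3* in SEC 3 (20.3%) and *Ighv1-53* in SEC 4 (43.0%). These were 9 different genes in 9 libraries. For kappa, *Igkv3-4* led in bright 1 (30.9%) and dim 1 (69.8%), *Igkv8-24* in bright 3 (27.9%), *Igkv6-32* in bright 4 (9.50%), *Igkv8-30* in SEC 1 (66.5%) and *Igkv8-21* in SEC 3 (22.2%). *Igkv1-135* led in dim 3 (44.0%), in dim 4, where all 108 kappa variable reads were its own, and in SEC 4 (46.5%).

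Evenness was given as the effective number of variable genes, which equals the number of genes where all are level. For heavy variable genes it was 6.25, 6.12 and 27.0 in the bright libraries, 3.42, 6.36 and 2.49 in the dim libraries, and 3.122, 7.03 and 3.115 in the SEC libraries. For kappa it was 5.70, 5.57 and 20.7 in bright AECs, 1.98, 3.23 and 1.0 in dim AECs, and 2.21, 7.46 and 2.74 in SECs. Bright 4 stood apart, with the most even use of both chains at only 0.0526% of its reads.

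Of the 140 variable genes, 23 reached 100 RPKM in some library. Of these, 20 did so in 1 library, *Ighv1-75* and *Igkv3-4* in 2, and *Iglv1* in 3. *Igkv3-4* had 3359 RPKM in bright 1 and no read in bright 3 or bright 4. It had 3702 and 1.26 RPKM in dim 1 and dim 3 with no read in dim 4, and 10.3 and 0.178 RPKM in SEC 1 and SEC 3 with no read in SEC 4. *Ighv1-75* had 1119 and 4.5 RPKM in bright 1 and bright 4, 1011 RPKM in dim 1, and 20.4, 0.345 and 3.69 RPKM in SEC 1, SEC 3 and SEC 4, with no read in bright 3, dim 3 or dim 4. Bright 1 and dim 1, the AEC libraries with the same number, thus shared a dominant heavy and a dominant kappa gene, and SEC 1 did not hold them at that level.

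*Iglv1* was at 534, 1.03 and 50.1 RPKM in bright AECs, at 1869 and 4.54 RPKM in dim 1 and dim 3 with no read in dim 4, and at 190, 0.386 and 19.6 RPKM in SECs. The other lambda segments, *Iglv2* and *Iglv3*, reached 86.8 and 64.9 RPKM in bright 1, 83.8 and 71.8 RPKM in dim 1, and 22.1 and 23.9 RPKM in SEC 1. In dim 3 they exceeded *Iglv1*, with 20.8 and 13.0 RPKM. Germline *Iglv1* and *Iglv2* differ at 12 of 366 aligned bases (96.7% identity), so reads could be split between them by the counting.

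In bright 1 the other high segments were *Ighv5-17* at 1483 RPKM (next highest library 7.70), *Ighv2-2* at 829 (next 3.58), *Ighv5-6* at 796 (next 15.8) and *Ighv5-16* at 719 (next 23.9). The kappa segments *Igkv9-124*, *Igkv6-14* and *Igkv10-96* reached 2237, 1100 and 1051 RPKM there, and 11, 9.63 and 27.8 RPKM in the next highest library. Dim 1 had *Igkv12-46* at 687 RPKM (next 24.7) and *Ighv1-36* at 427 RPKM (next 2.01). SEC 1 had *Igkv8-30* at 1433 RPKM (next 29.7) and *Ighv5-15* at 549 RPKM (next 21.3). SEC 4 had *Igkv1-135* at 841 RPKM (next 62.8), *Igkv3-10* at 673 (next 24.5), *Ighv1-53* at 315 (next 13.0) and *Ighv1-4* at 268 (next 1.94). Germline neighbours of these segments are close: *Igkv3-10* and *Igkv3-5* share 98.3% of their bases, and *Ighv5-6* and *Ighv5-4* share 95.5%. *Igkv3-5* was at 0.243 RPKM in SEC 4, where *Igkv3-10* was at 673 RPKM, and how the counting divided reads between them was not tested.

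**Figure D4:**
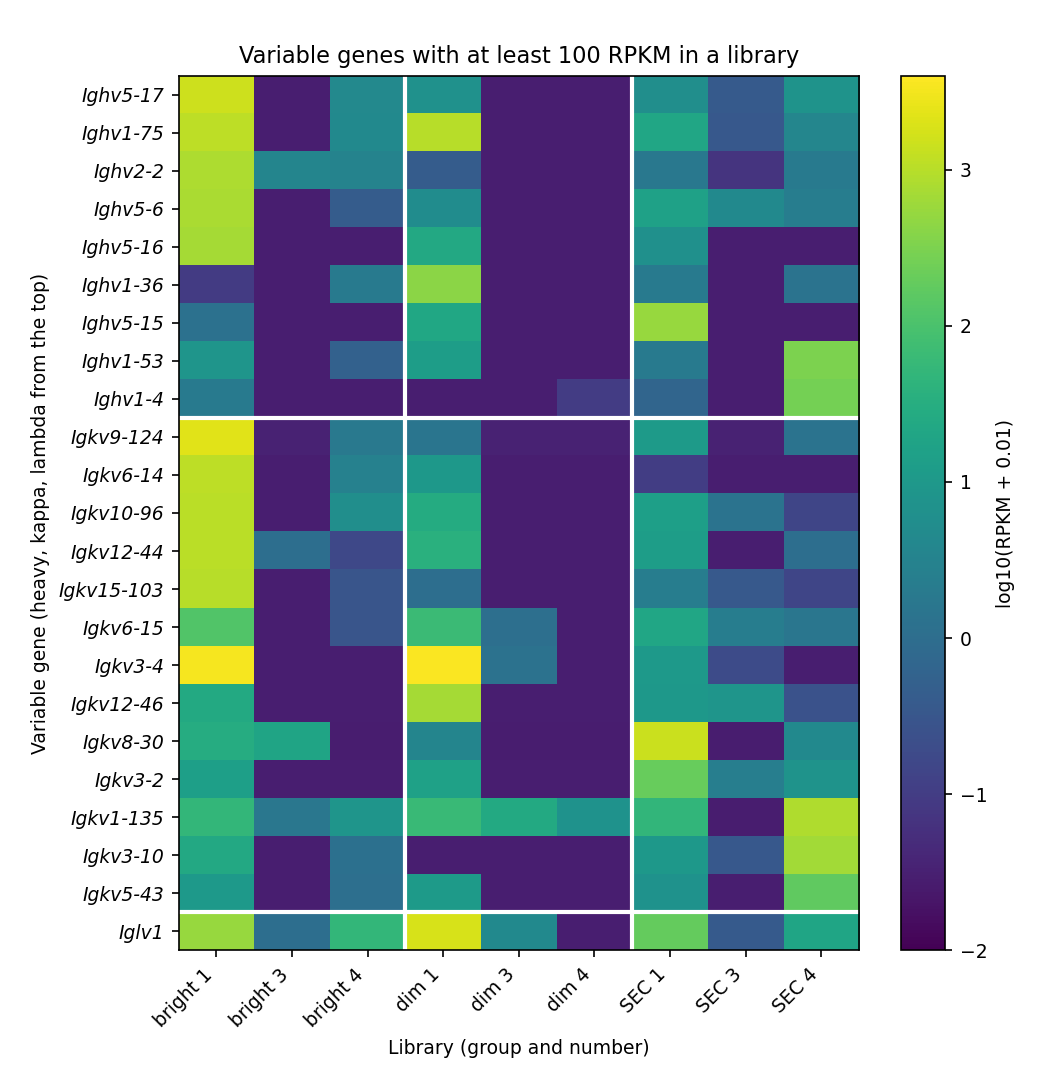
Heat map of the 23 variable genes that reached 100 RPKM in a library, with heavy, kappa and lambda genes from the top, the 9 libraries from left to right and log10(RPKM + 0.01) as colour. Most rows hold a single bright cell, whereas *Igkv3-4* (3359 and 3702 RPKM) and *Ighv1-75* (1119 and 1011 RPKM) are bright in both bright 1 and dim 1, and cells without a read have the dark colour of the deposited floor value.

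Over all 140 variable genes, 22 (15.7%) were at least 10-fold above their next highest library. The same held for 25 of 16207 tested genes that were no members (0.154%). The highest library was bright 1 for 70 variable genes, dim 1 for 41, SEC 1 for 12, SEC 4 for 7, bright 3 for 6 and bright 4 for 2, with 1 each for dim 3 and SEC 3 and none for dim 4. A library numbered 1 was the highest for 123 variable genes (87.9%), against 33.2% of the tested genes that were no members. The filter of the gene table limits this comparison, since a gene had to be read in at least 3 libraries to be kept. Reads were found for 139, 119 and 139 variable genes in bright 1, dim 1 and SEC 1. They were found for 32 and 98 in bright 3 and 4, 24 and 5 in dim 3 and 4, and 41 and 94 in SEC 3 and 4. Segments could thus be kept through the libraries numbered 1, which favours these as the highest.

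Grouped by family, the large *Ighv1* family (35 genes of the table) held 28%, 73.1% and 48.1% of heavy variable RPKM in the bright libraries, 84.5%, 37.1% and 71.9% in the dim libraries, and 26%, 52.0% and 92.0% in the SEC libraries. The *Ighv5* family of 8 genes took the larger part in bright 1 (52.6%) and SEC 1 (60.7%), through different genes: *Ighv5-17*, *Ighv5-6* and *Ighv5-16* in bright 1, and *Ighv5-15* in SEC 1.

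The short joining segments carried few reads. The 4 heavy joining genes had 1048, 18 and 33 reads in bright AECs, 124, 5 and 29 in dim AECs, and 241, 6 and 240 in SECs. *Ighj4*, the highest in bright 1, had 142, 8.92 and 6.98 RPKM in bright AECs, 29.0, 1.30 and 3.24 RPKM in dim AECs, and 30.3, 0.919 and 35.5 RPKM in SECs. *Ighj1* led instead in dim 1 (93.9 RPKM) and SEC 1 (56.9 RPKM). Dim 4, with 18 reads on *Ighv1-26* and few others on heavy variable genes, still had reads on each of the 4 heavy joining segments. The kappa joining gene *Igkj2* had 95.8, 0.848 and 3.38 RPKM in bright AECs, 86.0 RPKM in dim 1 and no read in dim 3 or dim 4, and 7.87, 1.15 and 16.1 RPKM in SECs. The diversity genes *Ighd4-1* and *Ighd1-1* had at most 15 and 43 reads in a library.

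The comparisons of the populations were made by limma on log2(RPKM + 1), with Benjamini-Hochberg adjustment over the 16364 genes that reached 0.1 RPKM in 3 or more libraries and an adjusted p of 0.05 as threshold. All 157 members passed this filter. With AECs set against SECs, 0 members passed the test, while 4.93% of all tested genes did. None passed for bright AECs against SECs (4.58% of all genes) or for dim AECs against SECs (1.95%, of which 0.764% higher and 1.19% lower). For bright AECs against dim AECs, 0 members and 0% of all genes passed. At an unadjusted p under 0.05 there were 0 members for AECs against SECs, 1 for bright AECs against SECs, 3 for dim AECs against SECs and 9 for bright AECs against dim AECs, where 14.7%, 14.9%, 10.9% and 4.91% of all genes passed that limit. The limma test on reads recovered from the deposited values (voom) likewise called 0 members in each of the 4 comparisons. Leaving out bright 4 changed 1 of the 4 counts: *Igkv12-98* and *Igkv4-92* then passed as higher in bright AECs than in SECs, as did 0.593% of all genes. Each had reads in bright 1 and bright 3 and none in bright 4. The main test did not take the library number into account. With the number as a block, *Igkv3-2* passed as lower in AECs, bright AECs and dim AECs than in SECs. *Igkv1-88* then passed as higher in bright AECs than in SECs. That fit called 8.15%, 8.50% and 3.94% of all genes. Weights per library called *Igkv1-122* in AECs against SECs, and 10.5% of all genes.

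The libraries numbered 1 were left out together in a fit chosen after seeing the data. Of the 157 members, 4 were then lower and none higher in AECs than in SECs (1.68% and 1.91% of all genes), 4 were lower and 1 higher in bright AECs than in SECs (1.75% and 2.10%), and 2 were lower and none higher in dim AECs than in SECs (0.275% and 0.556%). The 4 lower members were *Igkv3-2*, *Igkv17-127*, *Ighv1-59* and *Ighv5-6*, and *Ighv1-76* was the higher member. *Igkv17-127* had 0.562 RPKM in bright 4 and no read in bright 3, dim 3 or dim 4, against 9.53 and 12.2 RPKM in SEC 3 and SEC 4. In the libraries left out it stood at 31.7 RPKM in bright 1, 27.9 RPKM in dim 1 and 31.3 RPKM in SEC 1. Each population has 2 libraries in this fit.

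Differences of the constant genes had wide intervals that spanned both directions. *Igkc* differed by -0.78 on the log2 scale in AECs against SECs (SE 2.23, 95% interval -5.87 to 4.32, adjusted p = 0.96). *Igha* differed by -1.99 (SE 3.01, interval -8.86 to 4.87, adjusted p = 0.91), although each SEC library held at least 11.5 RPKM and 4 of the 6 AEC libraries held less. *Ighm* differed by 1.07 (SE 1.67) and *Igj* by -1.22 (SE 2.45), *Iglc2* by 0.11 (SE 1.99) and *Iglv1* by 0.72 (SE 2.68). *Ighg2b* differed by -1.31 (SE 1.18) and *Ighg2c* by 1.57 (SE 2.02), and without bright 1 *Ighg2c* differed by -0.11. The direction of the *Igkc* difference turned too, being 0.21 without dim 4, 0.07 without SEC 1 and 0.09 without SEC 4, and -2.49 without SEC 3. With libraries this far apart, a p above the threshold does not show that the populations were alike: the intervals of *Igkc* and *Igha* still hold differences of several log2 units in either direction.

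**Figure D5:**
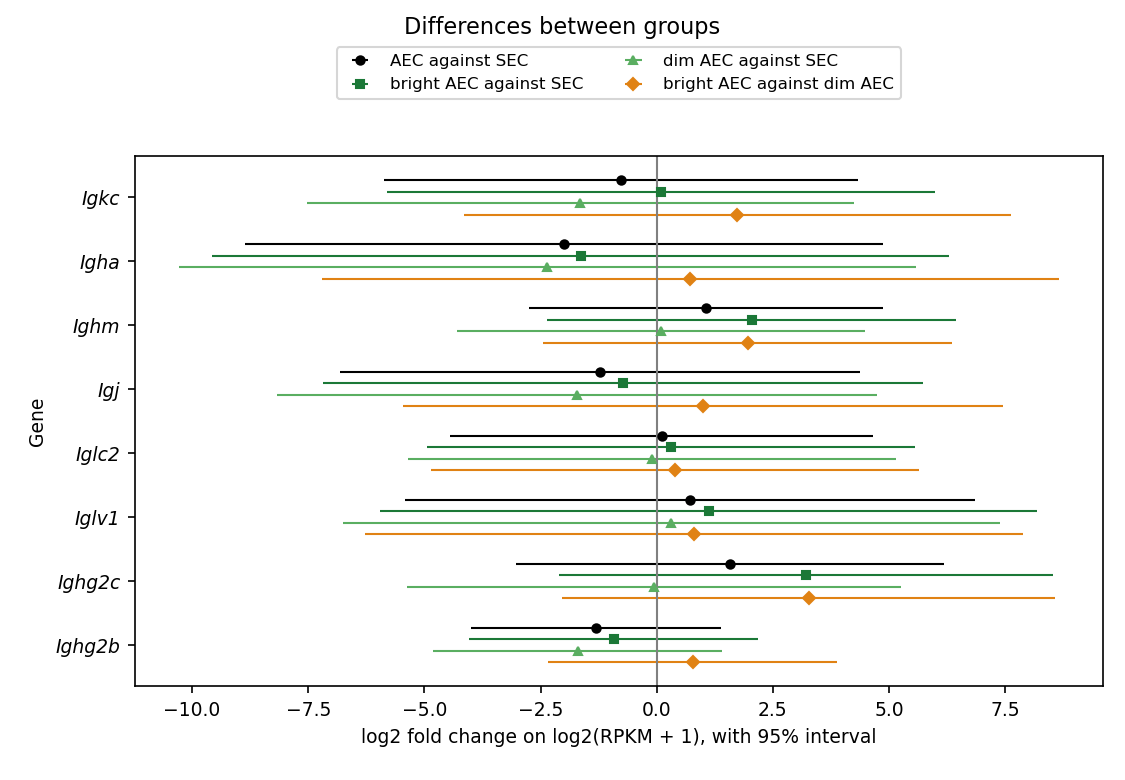
Fitted log2 fold change on log2(RPKM + 1) of the constant genes, *Igj* and *Iglv1* in 4 comparisons, AECs against SECs, bright AECs against SECs, dim AECs against SECs, and bright AECs against dim AECs. Points are estimates and bars 95% intervals, and all bars cross 0, from -8.86 to 4.87 for *Igha* in AECs against SECs.

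In direction the members divided. Fitted differences were positive for 91 of 157 members in AECs against SECs (median 0.15, against 0.03 over all tested genes), for 108 in bright AECs against SECs (median 0.43, against 0.03) and for 60 in dim AECs against SECs (median -0.21, against 0.005). For bright AECs against dim AECs 119 were positive (median 0.72, against 0.009). The first 3 comparisons share the SEC libraries, and the bright and dim libraries enter more than 1 comparison. These medians turned with single libraries. That of AECs against SECs lay between -0.36 and 0.81 with 1 library left out, and was negative without bright 1 (-0.36), dim 1 (-0.36) or SEC 3 (-0.34). That of bright AECs against SECs was negative without bright 1 (-0.55) or SEC 3 (-0.12), and that of dim AECs against SECs was positive without dim 4 (0.32) or SEC 1 (0.46) and close to 0 without dim 3. That of bright AECs against dim AECs was negative without bright 1 (-0.25).

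Few members had libraries of 2 populations that did not overlap. No member did for AECs against SECs, where 4.68% of all tested genes were higher and 5.77% lower in every AEC library. *Ighv2-2* alone was higher in every bright library than in every SEC library (829, 3.58 and 3.19 RPKM in bright AECs, and 1.77, 0.0602 and 1.92 RPKM in SECs), against 10.2% of all genes. In dim AECs against SECs none was higher (7.60% of all genes), and *Ighv1-19*, *Ighv14-1*, *Igkv3-10* and *Igkv4-68* were lower (9.39%). *Ighv2-2* and 6 genes of the *Ighv1* family (*Ighv1-52*, *Ighv1-61*, *Ighv1-69*, *Ighv1-76*, *Ighv1-80* and *Ighv1-85*) were higher in every bright than in every dim library, 4.46% of members against 3.62% of all genes, and none was lower (3.85%). These shares lay below the share over all genes or close to it.

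Of these, *Ighv1-80* had 15.5, 27.9 and 1.34 RPKM in bright AECs and 0.424 RPKM in dim 1, with no read in dim 3 or dim 4, a difference of 3.19 (SE 1.03, adjusted p = 0.88 by limma). *Ighv1-76* had 20.02, 7.995 and 2.86 RPKM in bright AECs and 0.506 RPKM in dim 1, with no read in dim 3 or dim 4, a difference of 2.95 (SE 0.91, adjusted p = 0.82 by limma). Neither passed the test after adjustment.

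The number of a library went with more of the members' spread than its population did. Between the numbers 1, 3 and 4 lay a median of 63.5% of a member's variance on the log2(RPKM + 1) scale, and between the populations 11.6%. Over all tested genes the medians were 34% and 22.3%. The number outweighed the population for 138 members (87.9%), against 58.5% of all tested genes. Since variable segments could be kept in the gene table through the libraries numbered 1, its filter limits this comparison too. The labels do not say what the numbers stand for.

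*Igha*, *Igkc*, *Iglc2*, *Ighm* and *Igj* moved together across libraries (r between 0.80 and 0.98). *Ighg2b* and *Ighg2c* did so less, with r between 0.41 and 0.68 in their pairs. Over the 9 libraries, Pearson's r of log2(RPKM + 1) was 0.98 between *Igha* and *Igj*, 0.97 between *Igkc* and *Igj* and 0.97 between *Igha* and *Igkc*. *Ighm* and *Ighg2b* were the least alike pair (0.41). All points share the libraries' depth and the 4 libraries with high levels, so these values are a description. Among 6788 other genes that reached 10 RPKM, the 10 whose pattern was most like the mean of the constant genes and *Igj* were *Arrb2*, *Stambpl1*, *Fcer1g*, *Rhoh*, *Fam129c*, *Hcls1*, *Me2*, *Parp1*, *Pfn1* and *Rgs19* (r between 0.97 and 0.98, 9 libraries). *Fcer1g*, which encodes the signalling chain shared by several Fc receptors, had 1356, 236 and 302 RPKM in bright AECs, 917, 343 and 164 RPKM in dim AECs, and 646, 298 and 398 RPKM in SECs.

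Neutrophil and pan-leukocyte genes were present beside the immunoglobulin genes, and highest in the library numbered 1 of each population. The 15 neutrophil genes held 18.5%, 2.74% and 4.52% of the reads in bright AECs, 14.4%, 0.720% and 0.597% in dim AECs, and 9.38%, 0.00718% and 4.43% in SECs. Summed over 9 pan-leukocyte genes the level was 6041, 716 and 1498 RPKM in bright AECs, 3741, 341 and 339 RPKM in dim AECs, and 2525, 137 and 1332 RPKM in SECs. *Ptprc*, which encodes the CD45 used to gate leukocytes out, had 44.5, 5.23 and 12.6 RPKM in bright AECs, 23.6, 1.85 and 1.73 RPKM in dim AECs, and 18.6, 0.0752 and 10.7 RPKM in SECs. All 14 pan-endothelial genes had reads in all 9 libraries, with a summed level of 876, 3450 and 2600 RPKM in bright AECs, 1668, 4149 and 3650 RPKM in dim AECs, and 2280, 4009 and 2832 RPKM in SECs, the library numbered 1 being the lowest of each population. Their part in the immunoglobulin levels was not tested. T cell and natural killer cell genes also summed highest there, at 262, 210 and 157 RPKM in bright 1, dim 1 and SEC 1. Other lists did so in part of the populations only. Red cell genes had their highest summed level in dim 4, the library with the least immunoglobulin. Within bright AECs and SECs, red cell genes were highest in bright 1 (9515 RPKM) and SEC 1 (4212 RPKM). Megakaryocyte and platelet genes were highest of all 9 libraries in bright 1, at 1727 RPKM. They summed to 26.4 RPKM in dim 1 and 103 RPKM in dim 4, and to between 42.4 and 43.8 RPKM in SECs. Monocyte and macrophage genes summed highest in bright 1 among bright AECs (267 RPKM), but in dim 3 among dim AECs (447 RPKM) and in SEC 3 among SECs (2141 RPKM). The median of these 11 genes was instead highest in the library numbered 1 of each population. It was 11.9, 7.62 and 7.62 RPKM in bright 1, dim 1 and SEC 1, and 3.37 and 0.701 RPKM in dim 3 and SEC 3.

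The 16 B cell genes followed the same libraries. Their summed level was 1301, 123 and 214 RPKM in bright AECs, 897, 65.1 and 30.7 RPKM in dim AECs, and 545, 6.61 and 166 RPKM in SECs. All 16 had reads in each library numbered 1, and also in bright 3, bright 4 and SEC 4. *Cd79a*, part of the B cell receptor complex, had 410, 30.5 and 52.1 RPKM in bright AECs, 295, 17.3 and 2.52 RPKM in dim AECs, and 166, 1.83 and 46.1 RPKM in SECs. *Igll1*, a surrogate light chain gene of early B cells, had 29.9 and 5.99 RPKM in bright 1 and bright 4 and 39.9 RPKM in dim 1. It had 13.1 and 1.76 RPKM in SEC 1 and SEC 4, with no read in bright 3, dim 3, dim 4 or SEC 3. The 12 pro-B and pre-B cell genes together summed highest in bright 1, dim 1 and SEC 1 within each population (423, 417 and 189 RPKM). Their share of reads was instead highest in bright 3, dim 3 and SEC 3 (0.103%, 0.109% and 0.0607%). Most of that share was *Cd93*, with 32323, 15873 and 43586 reads. The median level of the 12 genes there was 0.666, 0.413 and 0.0636 RPKM. In bright 1, dim 1 and SEC 1 this median was 12.6, 14.1 and 5.75 RPKM. Of these genes, *Cd93* was lowest in bright 1, dim 1 and SEC 1 (30.3, 59.0 and 44.3 RPKM), and *Dntt* had 11.2 RPKM in dim 4. In the test, 1 of the 16 B cell genes was higher and none lower in AECs than in SECs, beside 1.94% and 2.99% of all genes. It was the transcription factor gene *Ebf1*, with 15.3, 24.3 and 24.7 RPKM in bright AECs, 14.8, 9.59 and 15.0 RPKM in dim AECs, and 4.51, 0.547 and 2.24 RPKM in SECs, so that its level was not highest in the libraries rich in immunoglobulin. None of the 12 genes of pro-B and pre-B cells passed in any comparison.

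The plasma cell genes divided into those that tracked immunoglobulin and those that did not. *Mzb1*, an endoplasmic reticulum protein of antibody-making B cells, had 77.2, 1.15 and 9.26 RPKM in bright AECs, 86.4 and 3.16 RPKM in dim 1 and dim 3 with no read in dim 4, and 23.8, 0.434 and 8.34 RPKM in SECs. *Tnfrsf17*, the receptor BCMA of plasma cells, was read only in bright 1 (4.74 RPKM), dim 1 (5.58 RPKM) and SEC 4 (0.921 RPKM), 3 of the 4 libraries with high *Igha*. *Sdc1*, which encodes the plasma cell surface protein CD138 and is also expressed by other cells, had instead 8.45, 6.64 and 7.90 RPKM in bright AECs, 4.57, 2.62 and 15.5 RPKM in dim AECs, and 3.80, 2.70 and 4.51 RPKM in SECs. *Xbp1*, a transcription factor of secretory cells, passed as lower in AECs, with 93.4, 101 and 53.2 RPKM in bright AECs, 134, 246 and 143 RPKM in dim AECs, and 355, 450 and 555 RPKM in SECs. Of the 15 plasma cell genes, none was higher and 1 (*Xbp1*) lower in AECs than in SECs, and none was higher and 2 (*Xbp1* and *Fkbp11*) lower in bright AECs than in SECs, beside 1.74% and 2.85% of all genes in that comparison. None of 18 general secretory pathway genes passed in any comparison.

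Some receptors that bind or carry antibodies differed between the populations. Of 9 such genes in the table, 2 were lower in bright AECs than in SECs and none was higher, beside 2.85% and 1.74% of all genes. *Fcgrt*, the heavy chain of the neonatal Fc receptor, which protects IgG from breakdown in endothelium, had 66.8, 214 and 225 RPKM in bright AECs, 374, 1068 and 344 RPKM in dim AECs, and 969, 1725 and 1214 RPKM in SECs. *Fcgr2b*, the inhibitory IgG receptor known from sinusoidal endothelium of the liver, had 21.8, 8.76 and 10.1 RPKM in bright AECs, 16.6, 126 and 43.3 RPKM in dim AECs, and 96.1, 408 and 129 RPKM in SECs. No bright library overlapped an SEC library for either gene, as for 12.2% of all genes that were lower. Neither passed for AECs against SECs (adjusted p = 0.052 and 0.053 by limma).

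Promoters could be read for *Igj* only, which RefSeq lists as *Jchain*, since the promoter table used here (GRCm38.p6) held no other member. The octamer ATGCAAAT, the promoter element known from immunoglobulin variable genes, was searched on both strands from 250 bases before to 50 bases after each gene start. It was not found in the *Jchain* window and stood in 570 of 32851 promoters (1.74%).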

How the data were processed

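Single-end reads of amplified RNA (SMART-Seq v4, Nextera XT) from 9 libraries of 3 sorted populations were measured. Per the study's methods, the authors used STAR for alignment and HTSeq for gene counts, removed genes with low counts in most libraries, scaled the libraries by TMM factors (edgeR 3.12.0) and deposited log2 RPKM values for 17232 genes. In these values each gene has a finite lowest value that its libraries without reads share, as a small added prior count would give. The processing notes name mm9, but the gene positions in the table are those of GRCm38. RPKM was taken as 2 raised to the deposited value. Reads were recovered from the steps of these values, and 155085 of 155088 values were whole within 0.001 read. All 1413 values of the members were whole, and 596 of them were no read. Shares of reads use these recovered reads, and the recovered totals are those of the listed genes. By default HTSeq leaves out reads that match several genes, and near-identical variable segments can share reads, so levels of single segments are uncertain.

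The 3 populations were fitted together with limma 3.58.1 (R 4.3.3, trend) on log2(RPKM + 1) for genes that reached 0.1 RPKM in 3 or more libraries. A count test was not used as the main test because the deposited values are no counts. Descriptions were made in Python 3.11.15 (pandas 2.3.3, Biopython 1.88). Named were *Igha*, *Iglv1*, all constant genes and *Igj*, the 5 variable genes of each chain with the highest mean, members called, the highest genes of each list, and the 10 most alike other genes. Segments leading a library, joining and diversity genes, and members without overlap were named after their values were seen. The members and gene lists were chosen with earlier results of these data known. Alternatives were other added constants (0.1 and 0.01), no filter or 1 RPKM, quantile normalization, no trend, the replicate block, weights per library, fits of the compared groups alone, voom on recovered reads and leaving out each library. Matching to GENCODE M21 by identifier succeeded for 151 members, and 140 variable and joining members had a transcript there.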

Additional observations from a re-analysis of the deposited data

How the results depend on the processing

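The 4 counts of members called were 0 and stayed 0 with 0.1 or 0.01 added, with no filter or a minimum of 1 RPKM, with quantile normalization, without a trend, with only the groups compared and with voom. Weights per library called 1 member (*Igkv1-122*, AECs against SECs), and 10.5% of all genes. The replicate block called 1 (*Igkv3-2*), 2 (*Igkv3-2* and *Igkv1-88*, 2.06 on the log2 scale) and 1 (*Igkv3-2*) in AECs, bright AECs and dim AECs against SECs, where it called 8.15%, 8.50% and 3.94% of all genes, and 0 in bright AECs against dim AECs. The numbers were not taken as pairs, since the deviations of bright 4 and SEC 4 correlated at -0.21 while those of other same-numbered libraries correlated at 0.12 to 0.78, and not every library was closest to its own number. Only libraries numbered 3 and 4, chosen after seeing the data, gave 4, 5 and 2 members against SECs and 0 between the AEC populations. Leaving out single libraries gave 0 to 2 members for bright AECs against SECs, and 0 in the other comparisons.

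Of the AEC against SEC differences, that of *Ighm* was -0.094 with weights per library. *Ighg2c* was -0.29 with only libraries 3 and 4. *Iglc2* was -0.33 and -0.72 with 0.1 and 0.01 added, -0.036 with quantile normalization, -0.65 with weights, -1.14 with voom and -0.50 with only libraries 3 and 4. *Iglv1* was -0.20 with weights and -0.12 with only libraries 3 and 4. Leaving out 1 library gave ranges of -2.49 to 0.21 for *Igkc*, -0.73 to 2.39 for *Ighm*, -0.11 to 2.46 for *Ighg2c*, -1.33 to 1.26 for *Iglc2* and -1.12 to 2.44 for *Iglv1*, and -0.30 to 4.24 for *Igkc* in bright AECs against dim AECs. None of these passed the test in any setting, and the cause of the changes was not tested. The median difference of the members also depended on the setting. In AECs against SECs it was -0.17 with 0.01 added, close to 0 with 0.1 added, -0.22 with weights and 0.39 with voom. In bright AECs against SECs it was -0.05 with weights and 1.39 with voom. In dim AECs against SECs it was -0.80 and -1.27 with 0.1 and 0.01 added and -0.64 with voom, and in bright AECs against dim AECs 1.56, 2.08 and 2.04.

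As a share of summed RPKM, the immunoglobulin genes averaged 1.92%, 1.25% and 1.05% in bright AECs, dim AECs and SECs (RPKM gives short genes more weight than reads do). Leaving out 1 library, their mean share of reads lay between 0.0432% and 0.930%, 0.0132% and 0.587%, and 0.161% and 0.346%. Counting limits mainly dim 4, dim 3, SEC 3 and bright 3: with at least 10 reads asked for, heavy variable genes found were 10 in bright 3, 7 in dim 3, 1 in dim 4 and 8 in SEC 3.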
